A study of Mus musculus with 6 samples.

Results

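Collagens are the triple-helical proteins of the extracellular matrix, and the genes described here encode their single chains. The members were the genes with 1 symbol in the array annotation of the form Col, number, a, number, such as Col1a1, each read from its brightest probe set. They were 44 of the 19938 genes on the array. Fibroblasts make most of the collagen of the dermis, where fibrillar chains form the rope-like fibrils, FACIT chains (fibril-associated collagens with interrupted triple helices) sit on the fibril surface, and type VI chains form beaded filaments around cells. Keratinocytes, vessels and nerves rest on sheets of type IV collagen, the basement membranes. In a healing skin wound the provisional clot matrix is replaced by granulation tissue, in which new collagen is laid down by fibroblasts.

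Total RNA of whole back skin was hybridised to Affymetrix mouse gene arrays in 3 groups of 2 arrays each: skin 4 days after wounding, skin 1 day after wounding, and intact skin. All were inbred male BALB/c mice of 5 to 6 weeks, and no genetic change or drug treatment is named in the labels for any group. Each wounded mouse carried 2 punch wounds of 4 mm through the full skin down to the fascia, and an 8 mm punch took the wound with its surroundings, so that wound bed made up 25% of the area. The labels call the 2 arrays of a group biological replicates without saying whether each was a separate animal, so SDs and p-values measure the spread between these samples, which may be partly technical.

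Values are log2 intensities, in which a difference of 1 is a 2-fold difference. A gene was called when limma, fitted over all genes and all 6 arrays, gave an adjusted p under 0.05. Median intensities were 6.89 to 6.93 on the 6 arrays, the lower quartiles 5.29 to 5.37 and the highest values 13.70 to 13.83. Krt5 and Krt14, the keratins of basal epidermis, lay between 11.94 and 12.71 on every array. Array signal of one probe set cannot be set against that of another, so no gene's level is read against another gene's. Sums over marker lists and a division of the members by signal are given as descriptions only. Whole biopsies were measured, in which fewer cells of a type and less RNA per cell cannot be told apart.

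In day 4 wounds, 10 collagen chain genes were higher than in intact skin, most of them chains of the dermal interstitium. The called genes were Col3a1, Col5a1 and Col5a2 of the fibrils, Col6a1, Col6a2 and Col6a3 of the beaded filaments, Col12a1 and Col14a1 of the fibril surface, Col8a1 of a short-chain network, and Col17a1 of the keratinocyte membrane, with rises of 1.21-fold to 2.28-fold. Col4a5, a basement membrane chain, was the single chain called lower. So 10 of 44 members (22.7%) were higher, against 14.8% of all genes, and 1 (2.27%) was lower, against 12.1% of all genes. With median centring the split was 9 and 2 among the members, and 2574 and 3345 among all genes, against 2958 and 2413 on the deposited scale. The 11 called members were 25% of the 44, against 26.9% of all genes in either direction. Both day 4 arrays lay above both intact ones in 15 members (34.1%, against 30% of all genes) and below them in 11 (25%, against 36% of all genes). The median change of the 44 was 0.00, against −0.03 for all genes. Leaving out any 1 array of the 2 groups compared reduced the number of higher members, and that of all genes called higher fell too. Without intact skin replicate 2 Col4a5 also lost its call, with a log2 change of −0.405. In the fit of all arrays 5 members were lower at an unadjusted limma p under 0.05, against 3942 of all 19938 genes.

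In day 1 wounds 4 chains were called higher than in intact skin (Col8a1, Col6a3, Col5a2 and Col17a1) and 6 lower (Col4a5, Col16a1, Col11a1, Col9a3, Col18a1 and Col9a2). These shares, 9.09% and 13.6% of the members, stood beside 14.7% and 14.6% of all genes. On the deposited scale neither share of the members was thus above that of all genes. In either direction 10 members were called, against 29.3% of all genes. Both day 1 arrays lay above both intact ones in 9 members (20.5%, against 29% of all genes) and below them in 21 (47.7%, against 38.2% of all genes). The 4 chains called higher on day 1 were all among the 10 called on day 4, and Col4a5 was called lower at both times. The median change was −0.13, against −0.04 over all genes. Without day 1 wound replicate 2, intact skin replicate 1 or intact skin replicate 2 the higher members were 1, 1 and 2 and the lower ones 2, 3 and 3. With cyclic loess scaling the split was 7 higher and 5 lower, against 4 and 6 on the deposited scale. With median centring it was 4 higher and 8 lower of the 44 members. All 19938 genes then gave 2793 higher and 3294 lower, against 2927 and 2915 on the deposited scale. How the lower share of the members stands to that of all genes thus depends on the scaling.

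Between the 2 wound times, limma called 3 chains higher on day 4 than on day 1, namely Col14a1, Col5a1 and Col5a2, and 0 lower. The 3 made up 6.82% of the members, against 1.09% of all genes. At an unadjusted limma p under 0.05, 18 members were higher and 0 lower, against 2016 and 1749 of all 19938 genes. In 28 of 44 members (63.6%) both day 4 arrays lay above both day 1 arrays, against 25.6% of all genes, and in 3 (6.82%) both lay below, against 22% of all genes. In 33 of 44 members (75%) the mean was higher on day 4 than on day 1, against 51.5% of all genes. These were all 11 fibrillar chains, with a median difference of 0.31, 8 of 9 FACIT chains, 5 of 6 beaded filament chains and members of other classes. The 3 calls did not withstand the loss of an array, and the calls over all genes fell as well. With only the 2 wound groups fitted, 0 of the 3 were left. Over all 19938 genes that fit called 8 higher and 9 lower, against 217 and 227. The log2 differences kept their direction. With 1 wound array dropped they lay between 0.455 and 0.585 for Col5a1 and between 0.46 and 0.68 for Col5a2. That of Col14a1 was 1.01 after dropping the second day 1 array and 1.125 after dropping the first day 4 array.

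**Figure D1:**
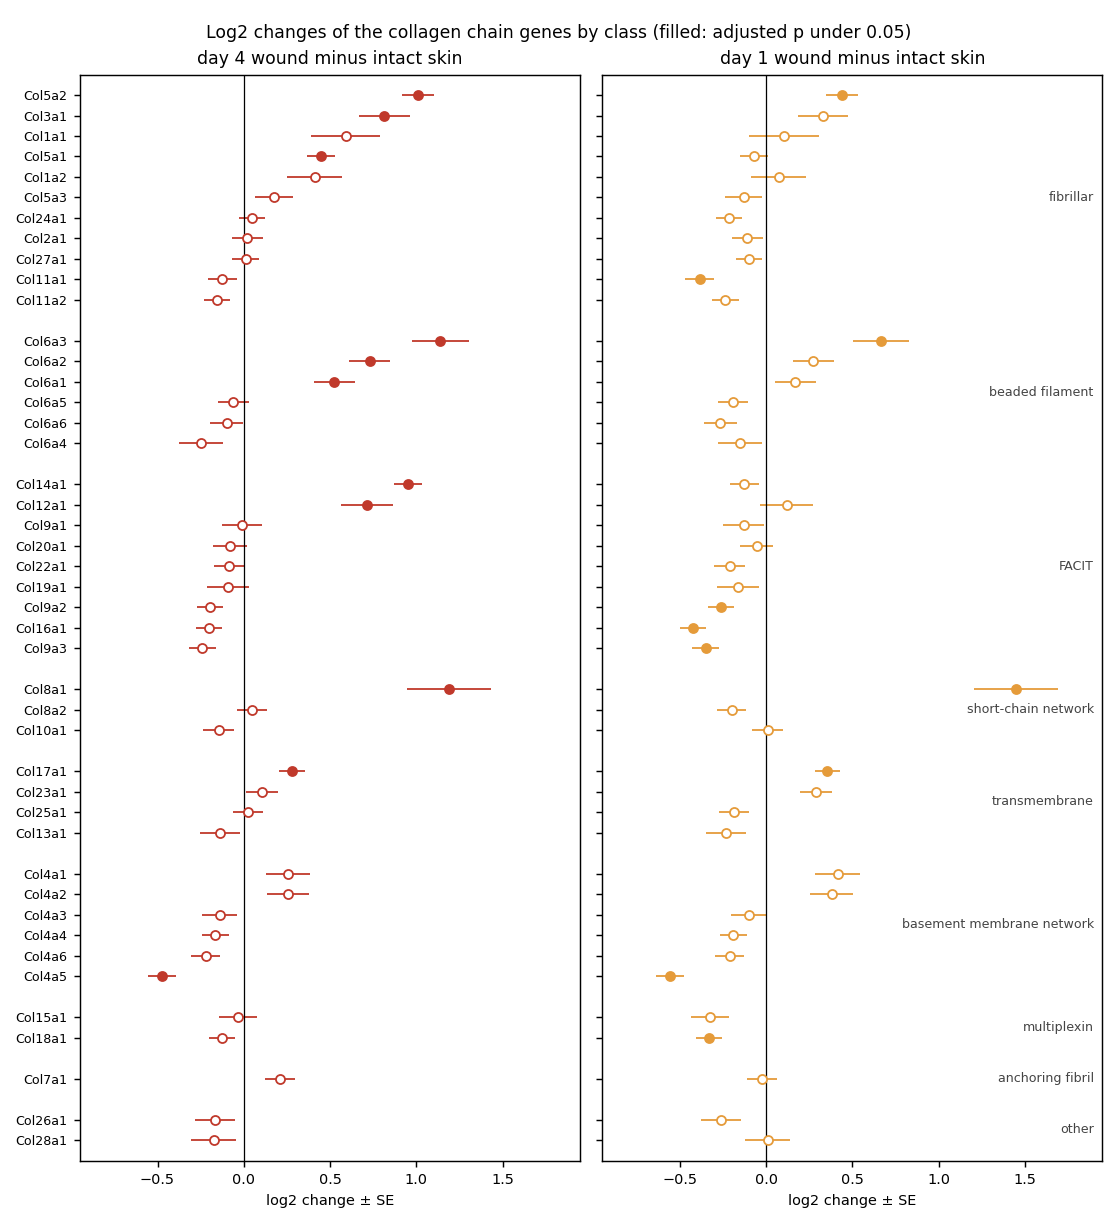
Log2 changes of all 44 collagen chain genes against intact skin, day 4 wounds on the left and day 1 wounds on the right, grouped by class. Points are limma estimates, bars are standard errors, and filled points passed an adjusted p of 0.05: 10 are filled to the right of 0 and 1 to the left on day 4, and 4 and 6 on day 1.

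Fibrillar chains were led by the type III and type V genes. Type III collagen forms thin fibrils of skin, vessels and young scar tissue, and type V collagen starts fibrils and limits their width. Col5a2 stood at 8.45 and 8.43 in day 4 wounds, 7.76 and 7.98 in day 1 wounds and 7.42 and 7.44 in intact skin. The 3 groups did not overlap, and the rise was 2.01-fold on day 4 (log2 change 1.01, SE 0.09, adjusted p = 0.000941) and 1.36-fold on day 1 (adjusted p = 0.0138). Its partner Col5a1 had 8.17 and 8.26 in day 4 wounds, 7.63 and 7.76 in day 1 wounds and 7.78 and 7.75 in intact skin. Day 4 wounds stood apart, 1.37-fold above intact skin (log2 change 0.45, SE 0.08, adjusted p = 0.00978), while day 1 wounds and intact skin overlapped (log2 change −0.07, adjusted p = 0.565). Against day 1 wounds Col5a2 was 1.48-fold higher on day 4 (adjusted p = 0.0418) and Col5a1 1.43-fold higher (adjusted p = 0.0391). The single chain Col3a1 gave 11.57 and 11.54 in day 4 wounds, 10.86 and 11.28 in day 1 wounds and 10.64 and 10.84 in intact skin. It was 1.76-fold higher on day 4 than in intact skin (log2 change 0.82, SE 0.15, adjusted p = 0.00967), and on day 1, when its lower array came within 0.02 of the higher intact one, the change of 0.33 was not called (adjusted p = 0.145).

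The calls of Col3a1, Col5a1 and Col5a2 differed in how far single arrays bore them. Col5a2 kept its day 4 call with any 1 array left out (highest adjusted p = 0.0142). Col3a1 lost it without intact skin replicate 1 (adjusted p = 0.0738), and Col5a1 lost it without day 4 wound replicate 2 or either intact skin array (highest adjusted p = 0.0622). The day 1 call of Col5a2 was lost without day 1 wound replicate 2 or either intact skin array (highest adjusted p = 0.0817), and Col3a1 gained a day 1 call without day 1 wound replicate 1 (adjusted p = 0.0299).

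Type I collagen is the main protein of dermal fibrils, built of 2 chains of Col1a1 and 1 of Col1a2. Col1a1 had 12.27 and 12.19 in day 4 wounds, 11.44 and 12.05 in day 1 wounds and 11.50 and 11.78 in intact skin. Col1a2 had 11.78 and 11.72 in day 4 wounds, 11.16 and 11.67 in day 1 wounds and 11.31 and 11.37 in intact skin. For both genes the day 4 arrays lay above the intact ones and the day 1 arrays spread across the intact range. Neither was called: the day 4 changes were 0.59 (SE 0.20, adjusted p = 0.0752) for Col1a1 and 0.41 (SE 0.16, adjusted p = 0.108) for Col1a2. The fitted spread is shared by the 3 groups, and the day 1 arrays differed by 0.61 for Col1a1 and 0.51 for Col1a2, against 0.08 and 0.06 between the day 4 arrays. With only day 4 and intact arrays in the fit, both genes passed (adjusted p = 0.0227 and 0.0190). Leaving out either day 1 array is that same fit for this comparison and adds no further evidence. Of the 14 other settings, Col1a1 stayed uncalled in 10 and Col1a2 in 11. The same day 1 arrays differed by 0.42 for Col3a1 and 0.43 for Col12a1, and replicate 2 was the higher one for all 11 fibroblast markers, by a median of 0.45.

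The other fibrillar chains, known mainly from cartilage and other tissues, gave 1 call, on day 1. Col11a1, whose protein is built into the core of cartilage fibrils, had 6.91 and 6.77 in day 4 wounds, 6.62 and 6.54 in day 1 wounds and 7.01 and 6.92 in intact skin. It was 1.31-fold lower on day 1 (log2 change −0.39, adjusted p = 0.0172), a call lost without day 1 wound replicate 2 or either intact skin array (highest adjusted p = 0.106). Col5a3, the third type V chain, had 7.23 and 7.47 in day 4 wounds, 6.99 and 7.10 in day 1 wounds and 7.10 and 7.25 in intact skin, with overlap between each wound time and intact skin and no call (day 4 change 0.18, adjusted p = 0.279). Col24a1 gave 6.55 and 6.64 in day 4 wounds, 6.32 and 6.34 in day 1 wounds and 6.58 and 6.51 in intact skin, a dip on day 1 that was not called (adjusted p = 0.0781). Col2a1, the collagen of cartilage, Col11a2 and Col27a1 had changes between −0.24 and 0.02 at the 2 wound times, none of them called. In all, 3 of 11 fibrillar chains were called higher and 0 lower on day 4, with a median of 0.18, and 1 and 1 on day 1, with a median of −0.10.

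Promoter windows of 2 fibrillar genes that rose on day 4 are shown because they differ in their elements although both genes rose: that of Col3a1 is 1 of the 5 collagen windows with a TATAAA match. Each runs 5′ to 3′ from 250 bases before to 50 after the RefSeq start in GRCm38.p6. Capitals mark matches on either strand to 4 motifs, none of which lies within another. The TATA box, which places the transcription machinery when it lies close before the start, was searched as TATAAA anywhere in the window. The CCAAT box was searched by the letters of its name. The GC box, a site of Sp1 family factors, was searched as GGGCGG. The AP-1 site was searched as TGACTCA, the element of Fos and Jun proteins. Col3a1 lies at chr1:45311288-45311587 on the plus strand and Col5a1 at chr2:27886175-27886474 on the plus strand.
Col3a1: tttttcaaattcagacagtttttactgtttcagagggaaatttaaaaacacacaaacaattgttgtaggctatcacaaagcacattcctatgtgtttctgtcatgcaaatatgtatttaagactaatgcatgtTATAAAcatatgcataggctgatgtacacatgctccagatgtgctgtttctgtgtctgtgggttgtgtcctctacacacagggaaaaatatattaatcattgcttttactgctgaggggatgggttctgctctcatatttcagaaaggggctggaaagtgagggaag
Col5a1: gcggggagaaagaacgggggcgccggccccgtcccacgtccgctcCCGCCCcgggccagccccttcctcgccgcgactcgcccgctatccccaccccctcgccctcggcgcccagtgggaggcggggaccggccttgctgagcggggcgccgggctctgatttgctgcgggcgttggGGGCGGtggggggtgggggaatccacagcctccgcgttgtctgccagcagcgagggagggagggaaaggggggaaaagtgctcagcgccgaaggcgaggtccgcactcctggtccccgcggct
The Col3a1 window held 1 TATAAA match, beginning at −117 relative to the start, and none of the other motifs, at 37.7% G and C and 0 CpG pairs, whereas the Col5a1 window held 2 GC boxes, at 75% G and C and 34 CpG pairs. Of 38 windows for 35 collagen chain genes, 23 held a GC box (60.5%, against 35.7% of all 32851 windows), 13 a CCAAT box (34.2%, against 37.4%), 5 a TATAAA match (13.2%, against 13.6%) and 1 an AP-1 site (2.63%, against 5.20%). These matches are descriptions of letters, and windows of genes that share a start region are not independent.

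The type VI genes encode the chains of a beaded filament that links cells to the fibrils around them. Col6a3, the longest chain of the classical trimer, had 10.22 and 10.39 in day 4 wounds, 9.70 and 9.96 in day 1 wounds and 8.95 and 9.38 in intact skin. Neither wound group overlapped with intact skin, and the rise was 2.20-fold on day 4 (log2 change 1.14, SE 0.16, adjusted p = 0.00416) and 1.59-fold on day 1 (adjusted p = 0.0248). Col6a2 had 9.50 and 9.60 in day 4 wounds, 8.99 and 9.20 in day 1 wounds and 8.69 and 8.95 in intact skin, and was 1.66-fold higher on day 4 (log2 change 0.73, SE 0.12, adjusted p = 0.00671). Col6a1 had 9.60 and 9.82 in day 4 wounds, 9.32 and 9.39 in day 1 wounds and 9.05 and 9.32 in intact skin, and was 1.44-fold higher on day 4 (log2 change 0.53, SE 0.12, adjusted p = 0.0221). The day 1 changes of Col6a2 (0.28, adjusted p = 0.135) and Col6a1 (0.17, adjusted p = 0.338) were not called. Col6a3 and Col6a2 kept their day 4 calls with any 1 array left out (highest adjusted p = 0.0320 and 0.0469). Col6a1 lost its call without day 4 wound replicate 2 or intact skin replicate 1 (highest adjusted p = 0.119), and the day 1 call of Col6a3 was lost without day 1 wound replicate 2 or intact skin replicate 1 (highest adjusted p = 0.141).

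The other 3 type VI chains, which lie together on the genome apart from the classical ones, were not called. Col6a4 had 6.10 and 5.84 in day 4 wounds, 6.04 and 6.10 in day 1 wounds and 6.36 and 6.08 in intact skin. Col6a5 had 6.75 and 6.78 in day 4 wounds, 6.70 and 6.57 in day 1 wounds and 6.90 and 6.75 in intact skin. Col6a6 had 7.42 and 7.36 in day 4 wounds, 7.24 and 7.21 in day 1 wounds and 7.61 and 7.37 in intact skin. Day 4 wounds overlapped with intact skin in all 3, whose day 4 changes were −0.25, −0.06 and −0.10. Col6a5 and Col6a6 each had a second, dimmer probe set. That of Col6a5 read 6.34 and 6.44 in day 4 wounds, 5.81 and 5.90 in day 1 wounds and 5.79 and 5.76 in intact skin, a day 4 change of 0.62 (adjusted p = 0.00858 over all probe sets), where its brighter probe set had −0.06. The 2 probe sets of Col6a5 disagree, and its direction is uncertain. The second one of Col6a6 had a day 4 change of 0.33 (adjusted p = 0.194).

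FACIT chains split between type XII and XIV, which coat fibrils of dense connective tissue, and the rest. Col14a1 had 9.44 and 9.54 in day 4 wounds, 8.48 and 8.35 in day 1 wounds and 8.53 and 8.55 in intact skin. It was the member with the smallest p over the 3 groups: 1.93-fold above intact skin on day 4 (log2 change 0.95, SE 0.08, adjusted p = 0.000782) and 2.11-fold above day 1 wounds (log2 change 1.08, SE 0.08, adjusted p = 0.0105). On day 1 both arrays lay just below the intact ones (log2 change −0.13, adjusted p = 0.303). Col12a1 had 10.10 and 9.94 in day 4 wounds, 9.21 and 9.64 in day 1 wounds and 9.22 and 9.39 in intact skin, and was 1.64-fold higher on day 4 than in intact skin (log2 change 0.72, SE 0.15, adjusted p = 0.0173), with day 1 wounds and intact skin overlapping (adjusted p = 0.600). Col14a1 kept its day 4 call against intact skin with any 1 array left out (highest adjusted p = 0.0126), whereas Col12a1 lost it without either day 4 array or either intact skin array (highest adjusted p = 0.112).

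Col16a1, a minor collagen of dermis and basement membrane zones, had 7.48 and 7.39 in day 4 wounds, 7.21 and 7.21 in day 1 wounds and 7.60 and 7.67 in intact skin. It was 1.34-fold lower on day 1 (log2 change −0.43, SE 0.08, adjusted p = 0.00740), a call lost without intact skin replicate 2 alone among the arrays (adjusted p = 0.0537), and the day 4 change of −0.20 was not called (adjusted p = 0.0984).

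Col9a3 had 7.32 and 7.30 in day 4 wounds, 7.26 and 7.14 in day 1 wounds and 7.58 and 7.52 in intact skin, below intact skin on all 4 wound arrays and called on day 1 (log2 change −0.35, adjusted p = 0.0174). Col9a2, a second chain of type IX, the cartilage FACIT, was 1.20-fold lower on day 1 (log2 change −0.26, adjusted p = 0.0465). Of all called values of collagen chains that of Col9a2 was the least firm, lost in 11 of 14 other settings. It was lost without any 1 of the 6 arrays. It was also lost with cyclic loess, a mean-variance trend, all probe sets, a replicate block or only the 2 groups compared. The call of Col9a3 was lost in 3 settings, without day 1 wound replicate 2 or either intact skin array. Col9a1, Col19a1, Col20a1 and Col22a1 had changes between −0.21 and −0.01 at the 2 wound times, with no call. Of 9 FACIT chains 2 were called higher and 0 lower on day 4 (median −0.09), and 0 higher and 3 lower on day 1 (median −0.16).

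Col8a1 showed the highest fold of all members at each wound time. Its protein is a short-chain collagen that forms hexagonal networks, known from the corneal Descemet membrane and from injured vessel walls. Values were 8.45 and 9.01 in day 4 wounds, 8.68 and 9.30 in day 1 wounds and 7.53 and 7.55 in intact skin. All 4 wound arrays lay above both intact ones, by 2.28-fold on day 4 (log2 change 1.19, SE 0.24, adjusted p = 0.0149) and 2.73-fold on day 1 (log2 change 1.45, SE 0.24, adjusted p = 0.00606), and the 2 wound times overlapped (adjusted p = 0.626). Within each wound time replicate 2 was higher, by 0.56 on day 4 and 0.62 on day 1. The day 1 call held with any 1 array left out (highest adjusted p = 0.0481), and the day 4 call was lost without day 4 wound replicate 2 or either intact skin array (highest adjusted p = 0.0895). The other short-chain genes, Col8a2 and the growth plate collagen Col10a1, had changes between −0.20 and 0.05 and no call. The Col8a1 window at chr16:57754688-57754987 (GRCm38.p6, minus strand) is printed because it held 4 GC boxes (capitals), a number reached in only 2 of the 38 collagen windows, the other being that of Col8a2.
Col8a1: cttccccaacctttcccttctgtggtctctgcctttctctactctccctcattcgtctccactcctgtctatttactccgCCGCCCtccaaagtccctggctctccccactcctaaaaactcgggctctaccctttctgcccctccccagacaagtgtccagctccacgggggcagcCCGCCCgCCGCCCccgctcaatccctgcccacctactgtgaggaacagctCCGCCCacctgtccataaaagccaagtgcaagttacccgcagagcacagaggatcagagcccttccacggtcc

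Type IV collagen is the network of basement membranes. Its chains occur in fixed partnerships: Col4a1 with Col4a2 in nearly all basement membranes, Col4a5 with Col4a6 in that of the epidermis and of smooth muscle, and Col4a3 with Col4a4 and Col4a5 chiefly in kidney and lung. Col4a1 had 8.36 and 8.51 in day 4 wounds, 8.48 and 8.71 in day 1 wounds and 8.04 and 8.32 in intact skin. Col4a2 had 7.92 and 8.00 in day 4 wounds, 7.95 and 8.22 in day 1 wounds and 7.59 and 7.82 in intact skin. Both genes were above intact skin on all 4 wound arrays, with changes of 0.26 each on day 4 (adjusted p = 0.194 for Col4a1 and 0.173 for Col4a2) and of 0.42 and 0.38 on day 1 (adjusted p = 0.0549 and 0.0608), none called. Both passed on day 1 with cyclic loess (adjusted p = 0.0324 and 0.0349).

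Col4a5 moved the other way. It had 6.76 and 6.77 in day 4 wounds, 6.73 and 6.64 in day 1 wounds and 7.17 and 7.31 in intact skin. No wound array reached the intact range, and the gene was 1.39-fold lower on day 4 (log2 change −0.48, SE 0.08, adjusted p = 0.00839) and 1.47-fold lower on day 1 (log2 change −0.56, SE 0.08, adjusted p = 0.00380), the day 1 call holding with any 1 array left out (highest adjusted p = 0.0316). Its partner Col4a6 had 6.10 and 6.13 in day 4 wounds, 6.10 and 6.15 in day 1 wounds and 6.42 and 6.25 in intact skin, also below intact skin on all 4 wound arrays but not called (day 4 change −0.22, adjusted p = 0.104). Col4a4 had 6.62 and 6.59 in day 4 wounds, 6.56 and 6.60 in day 1 wounds and 6.83 and 6.71 in intact skin, and Col4a3 had 6.5 and 6.59 in day 4 wounds, 6.70 and 6.47 in day 1 wounds and 6.73 and 6.64 in intact skin. Neither was called, with day 4 changes of −0.17 and −0.14. Relative to Col4a1 on the same array, Col4a5 was lower than the intact mean by a log2 difference of −0.66 and −0.80 in day 4 wounds and −0.81 and −1.13 in day 1 wounds.

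The promoter windows of Col4a1 and Col4a2 are printed together because the genes lie head to head and had changes of like size. Col4a1 is at chr8:11312777-11313076 on the minus strand and Col4a2 at chr8:11312555-11312854 on the plus strand (GRCm38.p6), so that 78 bases are shared, each the reverse complement of the other. Capitals mark CCAAT boxes and GC boxes on either strand.
Col4a1: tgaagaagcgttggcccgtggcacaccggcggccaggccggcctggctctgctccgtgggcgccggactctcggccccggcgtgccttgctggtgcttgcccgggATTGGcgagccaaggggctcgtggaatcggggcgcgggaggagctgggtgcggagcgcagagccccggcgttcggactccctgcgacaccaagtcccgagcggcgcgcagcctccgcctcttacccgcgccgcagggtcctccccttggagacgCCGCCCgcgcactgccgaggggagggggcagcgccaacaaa
Col4a2: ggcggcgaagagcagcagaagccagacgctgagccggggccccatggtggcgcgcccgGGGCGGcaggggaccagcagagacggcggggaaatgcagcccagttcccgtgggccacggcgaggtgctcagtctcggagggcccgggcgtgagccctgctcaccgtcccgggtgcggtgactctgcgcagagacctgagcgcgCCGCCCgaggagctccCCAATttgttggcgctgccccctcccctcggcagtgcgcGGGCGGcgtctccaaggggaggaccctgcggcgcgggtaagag
Each window held 1 CCAAT box, and the GC boxes numbered 1 in that of Col4a1 and 3 in that of Col4a2. The GC box of the Col4a1 window lies in the shared bases and is the same site as the last one of the Col4a2 window. The 2 windows had 37 and 33 CpG pairs. The windows of Col4a5 and Col4a6, neighbours on the X chromosome, had 1 GC box each, and that of Col4a5 had 1 CCAAT box.

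Other chains of the basement membrane zone gave smaller values. Col18a1, which carries the endostatin fragment at its end, had 8.23 and 8.14 in day 4 wounds, 7.96 and 8.00 in day 1 wounds and 8.27 and 8.35 in intact skin. It was 1.26-fold lower on day 1 (log2 change −0.33, adjusted p = 0.0205), a call lost without either day 1 array or either intact skin array (highest adjusted p = 0.109). Col15a1, its relative in vessel and muscle basement membranes, had a change of −0.33 on day 1 (adjusted p = 0.0713) and of −0.04 on day 4. Col7a1, the anchoring fibril that ties epidermis to dermis, had a change of 0.21 on day 4 (adjusted p = 0.125) and −0.03 on day 1.

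Of the transmembrane collagens Col17a1, the hemidesmosome collagen of basal keratinocytes, was called at both times. It had 10.46 and 10.54 in day 4 wounds, 10.60 and 10.55 in day 1 wounds and 10.20 and 10.24 in intact skin. The rises were 1.21-fold on day 4 (log2 change 0.28, SE 0.07, adjusted p = 0.0345) and 1.28-fold on day 1 (adjusted p = 0.0135). Of the 6 basal keratinocyte markers, 4 were also called higher on each day, Itga6 by 0.97 on day 4 and 1.11 on day 1. Krt5 changed by 0.04 on day 4 and 0.025 on day 1, and Trp63 by −0.26 and −0.095, with no call. The summed level of the 6 (linear scale) was 18189 to 18387 in day 4 wounds, 17499 to 18398 in day 1 wounds and 14522 to 15213 in intact skin. The part of the keratinocyte share in the change of Col17a1 was not tested. The day 4 call was lost without any 1 array, with median centring, cyclic loess, all probe sets or only the 2 groups compared (highest adjusted p = 0.157), and the day 1 call without either day 1 array or either intact skin array (highest adjusted p = 0.0829). Col23a1 was above intact skin on day 1 without a call (0.29, adjusted p = 0.0606), and Col13a1 and Col25a1 had changes between −0.23 and 0.03. Col26a1 and Col28a1, which belong to none of these classes, had changes between −0.26 and 0.01 and no call.

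**Figure D2:**
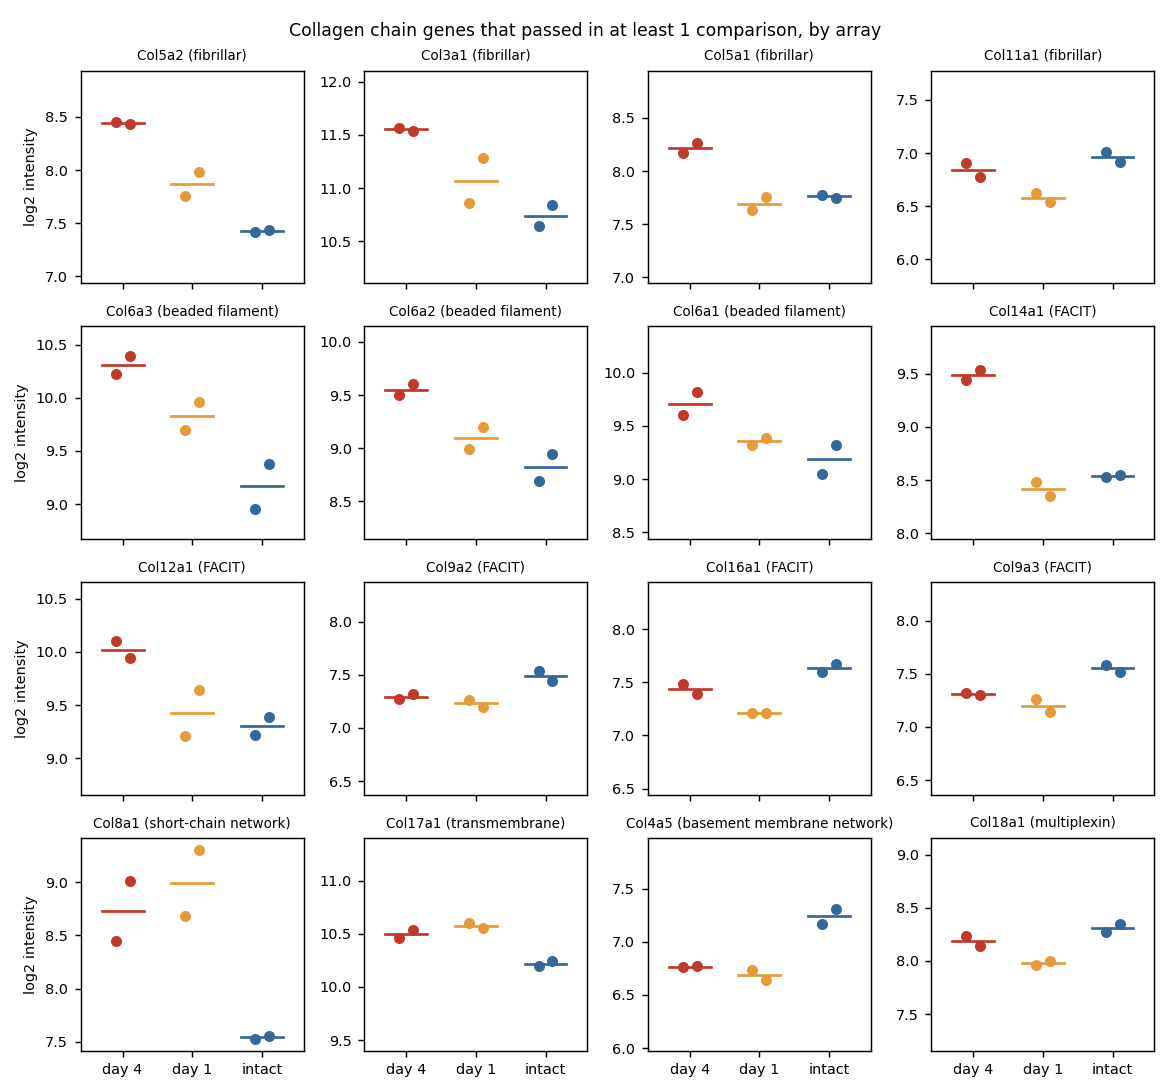
Log2 intensity on each array for the 16 collagen chain genes called in at least 1 comparison, with day 4 wounds left, day 1 wounds in the middle and intact skin right. Points are arrays, lines are group means, and every panel spans 2 log2 units. Col14a1 and Col5a1 have their highest arrays on day 4, Col8a1 lies above intact skin at both wound times, and Col4a5 lies below intact skin at both.

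In all, 16 of 44 members were called in at least 1 comparison and 28 in none. That share was not counted over all genes, so the 16 are not read as a result about the members. The moderated F test over the 3 groups was passed by 15 of 44 members, against 6113 of 19938 genes (30.7%). The rises called lay among the brighter probe sets. With the members divided at a mean log2 intensity of 7.5, a limit chosen after the values were seen, 10 of the 18 brighter members were called higher on day 4 and 0 lower, and of the 26 dimmer ones 0 were called higher and 1 lower. The mean includes the wound arrays, so that a rise helps a gene to pass: Col5a2, with a mean of 7.43 in intact skin, counted as brighter. All genes were also called higher more often above the limit, 2174 of 9520, than below it, 784 of 10418. The dimmer members had a median change of −0.13 on day 4 and −0.20 on day 1, with 24 of 26 below 0 on day 1. Of all genes under the same limit 6537 of 10418 were below 0 on day 1, with a median of −0.07 at each time. The deposited values carry no detection call, and the part of weak signal in these small decreases was not tested.

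**Figure D3:**
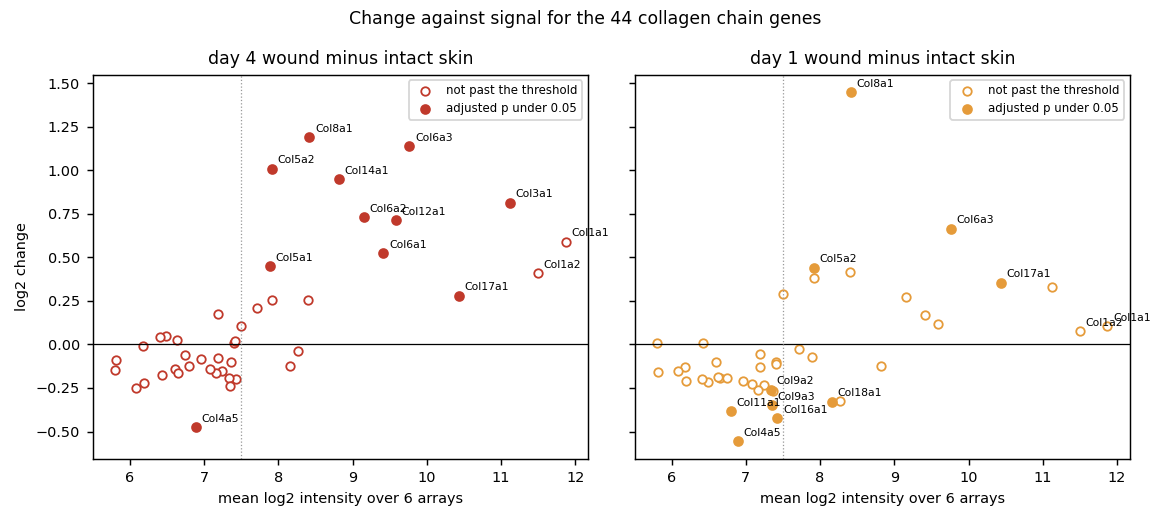
Log2 change against the mean log2 intensity over 6 arrays for the 44 members, in day 4 wounds left and day 1 wounds right, each against intact skin. Filled points passed an adjusted p of 0.05, and the dotted line marks 7.5. The called rises all lie right of that line, and most points left of it sit slightly below 0.

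Chains that form one trimer did not always change by the same amount. Within an array, the log2 ratio of Col5a2 to Col5a1, relative to its mean in intact skin, was 0.62 and 0.51 in day 4 wounds and 0.47 and 0.56 in day 1 wounds, against −0.03 and 0.03 in intact skin. That of Col6a3 to Col6a1 was 0.64 and 0.59 in day 4 wounds and 0.40 and 0.59 in day 1 wounds, against −0.08 and 0.08 in intact skin. By contrast Col4a1 to Col4a2 stayed between −0.04 and 0.06 on all 6 arrays. The ratio of Col1a1 to Col1a2 was 0.19 and 0.17 in day 4 wounds and −0.02 and 0.08 in day 1 wounds. In intact skin it was −0.11 and 0.11. Col3a1 and Col1a1 belong to different trimers. Their ratio was 0.20 and 0.25 in day 4 wounds and 0.32 and 0.13 in day 1 wounds, against 0.04 and −0.04 in intact skin. With 2 arrays a group these ratios were left without a test.

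Collagen genes next to each other on a chromosome, with no other protein-coding gene between them in RefSeq, formed 8 pairs. Col3a1 and Col5a2 on chromosome 1 had day 4 changes of 0.82 and 1.01, and Col6a2 and Col6a1 on chromosome 10 had 0.73 and 0.53, all called. Col4a1 and Col4a2 on chromosome 8 had 0.26 each. The pairs Col9a1 with Col19a1, Col4a4 with Col4a3, Col6a6 with Col6a5, Col6a5 with Col6a4 and Col4a6 with Col4a5 had negative changes in both members on day 4 by their brighter probe sets, with only Col4a5 called. The direction of Col6a5 is uncertain, as its dimmer probe set gave 0.62.

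Many genes whose products make, crosslink, bind or cleave collagen were higher in wounds. Among 17 chaperones and hydroxylases, which modify and fold procollagen in the cell, limma called 12 higher on day 4 and 0 lower (0 also at an unadjusted p under 0.05), with a median of 0.61, and 12 were higher and 1 lower on day 1, with a median of 0.47. P4ha1, a prolyl hydroxylase subunit, was 2.42-fold higher on day 4 and 2.37-fold on day 1, P4ha2 1.98-fold and 1.79-fold, the lysyl hydroxylase Plod1 1.99-fold and 2.02-fold, and P4hb 1.56-fold and 1.39-fold. Of 11 procollagen proteinases and crosslinking genes 5 were higher on each day. The crosslinking enzyme Lox was 2.82-fold higher on day 4 and 2.45-fold on day 1, Loxl3 2.14-fold and 1.59-fold, and Loxl1 1.78-fold and 2.07-fold. Pcolce2, an enhancer of procollagen cleavage, was 1.62-fold higher on day 4 and changed by 0.02 on day 1 (adjusted p = 0.901).

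Of 11 genes for fibril-associated proteoglycans and matricellular proteins 6 were higher on each day. Lum, which binds fibrils, was 3.07-fold higher on day 4 and 2.17-fold on day 1, Dcn 1.51-fold and 1.42-fold, Postn 1.54-fold and 1.28-fold, and Bgn 1.48-fold and 1.27-fold. Among 9 collagen receptors 5 were higher on each day, led by Ddr2, a receptor kinase for fibrillar collagen, at 2.34-fold on day 4 and 2.92-fold on day 1. On day 4 0 receptors were lower, and on day 1 there was 1, Itga11 (log2 change −0.595). Itgb1, the shared subunit of the collagen integrins, was 1.80-fold and 1.76-fold higher, and Lair1, an inhibitory collagen receptor of leukocytes, 2.23-fold and 2.37-fold. Mrc2, which takes up collagen fragments, was 1.68-fold higher on day 4, and its day 1 change was not called (adjusted p = 0.191).

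All 7 collagenases and gelatinases were higher on day 4 and 6 of 7 on day 1. The neutrophil collagenase Mmp8 stood at 8.27 and 8.52 in day 4 wounds, 10.47 and 10.74 in day 1 wounds and 4.60 and 4.45 in intact skin, the intact values lying under the arrays' lower quartile. Mmp13, the interstitial collagenase of mice, was 9.88-fold higher on day 4 and 17.6-fold on day 1, the gelatinase Mmp9 6.70-fold and 9.95-fold, and the lysosomal protease Ctsk 3.28-fold and 2.45-fold. Among 13 partners of type IV collagen in basement membranes 8 were higher and 1 lower on day 4, and 5 higher and 3 lower on day 1. The laminin chain Lamb3 was 1.86-fold higher on day 4 and 1.73-fold on day 1, Nid2 1.72-fold higher on day 4, and Lama2 1.39-fold higher on day 4, while Lama5, the laminin chain of mature basement membranes, was 1.71-fold and 1.55-fold lower. All called shares are to be read beside 14.8% higher and 12.1% lower among all genes on day 4, and 14.7% and 14.6% on day 1.

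**Figure D4:**
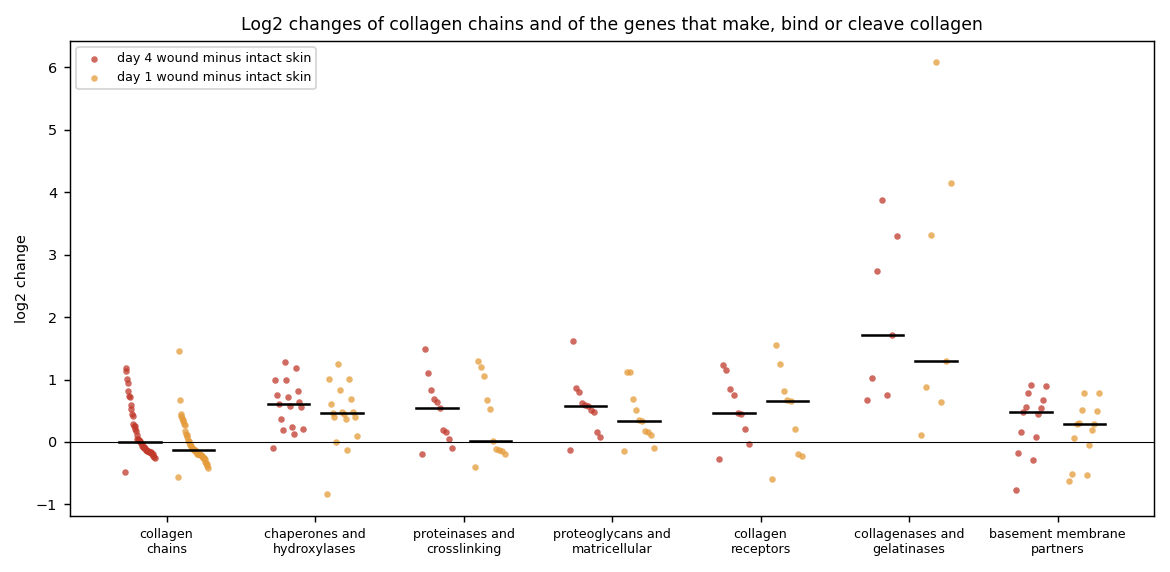
Log2 changes of the collagen chain genes and of 6 lists of genes that make, bind or cleave collagen, in day 4 wounds (left of each pair) and day 1 wounds (right), each against intact skin. Points are genes and black bars medians, which are 0.00 and −0.13 for the chains, 0.61 and 0.47 for chaperones and hydroxylases, and 1.72 and 1.30 for collagenases and gelatinases.

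The biopsies also differed in their cell markers. Of 11 fibroblast markers 8 were higher and 1 lower on each day, with a summed level (linear scale) of 17125 to 18927 in day 4 wounds, 14623 to 17597 in day 1 wounds and 10729 to 10942 in intact skin. Pdgfra, the receptor for platelet-derived growth factor on fibroblasts, was higher by 1.43 on day 4 and 1.74 on day 1. The marker called lower was Dpp4, with changes of −0.43 on day 4 and −1.32 on day 1. Of 7 endothelial markers 6 were higher at each time, with sums of 2845 to 3497 in day 4 wounds, 3512 to 3853 in day 1 wounds and 1910 to 2075 in intact skin. All 8 neutrophil and macrophage markers were higher at each time, with sums of 9831 to 11132 in day 4 wounds, 12240 to 15278 in day 1 wounds and 1417 to 2062 in intact skin. Hair follicle markers were lower, 4 of 7 on day 4 and 7 of 7 on day 1, with sums of 654 to 5058 in day 4 wounds, 583 to 1234 in day 1 wounds and 17091 to 17284 in intact skin. The part of these cell types in the collagen changes was not tested.

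Skeletal muscle markers were higher in 5 of 8 on day 4 and 7 of 8 on day 1, with sums of 15941 to 18504 in day 4 wounds, 21748 to 22289 in day 1 wounds and 13152 to 13167 in intact skin. Myofibroblast and smooth muscle markers were higher in 3 of 7 on day 4, with 1 higher and 1 lower on day 1, and sums of 6463 to 7102 in day 4 wounds, 6429 to 6638 in day 1 wounds and 4862 to 5323 in intact skin. The gene called higher on day 1 was Des, which skeletal muscle also expresses, with changes of 0.83 on day 4 and 1.15 on day 1. Its level is part of the sums above, which are therefore not read as a change of myofibroblasts. The gene called lower on day 1 was Myl9 (log2 change −0.465, adjusted p = 0.00868 in limma). Acta2, the actin of myofibroblasts, was higher by 0.28 on day 4 (adjusted p = 0.0416), with a change of −0.02 on day 1 (adjusted p = 0.873). Of 7 chondrocyte and bone markers, 2 were lower at each time (Acan and Sox9, the second also a gene of the hair follicle), with sums of 971 to 1254 in day 4 wounds, 896 to 1382 in day 1 wounds and 2124 to 2164 in intact skin. The cartilage markers Matn1 and Matn3 and the bone marker Ibsp lay between 4.22 and 5.22 on all arrays, under the lower quartile. Of 5 adipocyte markers 1 was lower at each time, and of 3 Schwann cell markers 2 were higher at each time. Adipocyte sums were 6415 to 7225 in day 4 wounds, 6430 to 7377 in day 1 wounds and 7350 to 7389 in intact skin, and Schwann cell sums 490 to 549 in day 4 wounds, 509 to 540 in day 1 wounds and 398 to 399 in intact skin.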

How the data were processed

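Total RNA of 6 back skin biopsies was measured on Affymetrix mouse gene arrays, 2 per group. The authors deposited log2 values per probe set, made with RMA (background correction, quantile normalization and probe summary) per the submitters' processing notes, which give no version, and rounded to 2 decimals. Quantile normalization forces near-equal distributions on the arrays, so changes are relative to the whole array, and background correction with summary compresses changes of dim probe sets. Arrays have no read depth, and precision is set by having 2 arrays per group.

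Of 35556 probe sets, 21789 had 1 symbol, 1621 several and 12146 were not in the platform annotation. The brightest probe set by mean over the arrays stood for each of 19938 genes, collagen chains included (46 probe sets, 44 genes, all 44 symbols found in RefSeq). A model of 1 mean per group over all 6 arrays was fitted with limma 3.58.1 in R 4.3.3 (lmFit, eBayes, 3 residual and 3.4 prior degrees of freedom), with Benjamini-Hochberg adjustment over all genes, and was tested on simulated data. Adjusted p-values are limma's. Tables and plots were made with Python 3.11.15. Named were all called members, the 16 with the smallest F-test p, types I, III, V, IV and VI, and up to 4 genes of each list with the smallest day 4 p. Marker lists are given by their counts and sums with up to 2 members each, apart from Krt5 and Krt14, given as a check of the tissue, and the cartilage and bone markers under the arrays' lower quartile, which were chosen after their values were seen. Dpp4, Myl9 and Trp63 were also named after their values were seen, as markers with a decrease in wounds. Promoter windows are from RefSeq, GRCm38.p6. The members and lists were chosen with earlier results of these data known. Alternatives tried were median centring, cyclic loess, a mean-variance trend, removal of the dimmest 30% of genes, the mean of a gene's probe sets, all probe sets, a replicate block, only the 2 groups compared, and each array left out in turn.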

Additional observations from a re-analysis of the deposited data

Results flagged for a closer look

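Among the collagen chains and the 6 lists of genes that make, bind or cleave collagen, the changes against intact skin differed between the 2 wound times for 9 genes, tested as day 4 minus day 1 in limma. Over all genes 217 were higher and 227 lower in that comparison. Of the collagen chains these were Col14a1 with a difference of 1.08 (adjusted p = 0.0105), Col5a2 with 0.57 (adjusted p = 0.0418) and Col5a1 with 0.52 (adjusted p = 0.0391), in each of which both day 4 arrays lay above both day 1 arrays. Among the genes that make or bind collagen, Plod2, the lysyl hydroxylase of telopeptides, differed by 0.74 (adjusted p = 0.0223). It had 7.61 and 7.72 in day 4 wounds, 6.86 and 7.0 in day 1 wounds and 7.75 and 7.78 in intact skin. Itga11, an integrin subunit for fibrillar collagen on fibroblasts, differed by 0.80 (adjusted p = 0.0141), with 7.64 and 7.64 in day 4 wounds, 6.86 and 6.83 in day 1 wounds and 7.5 and 7.38 in intact skin. Both were thus called lower on day 1 and not called on day 4.

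The remaining differences were 0.53 for the laminin chain Lama2 (adjusted p = 0.0291), 0.68 for Pcolce2 (adjusted p = 0.0361), 1.00 for the small proteoglycan Ogn (adjusted p = 0.0414) and −2.21 for Mmp8 (adjusted p = 0.00485), which was lower on day 4 than on day 1.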

How the results depend on the processing

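Of 24 called values of collagen chain genes, each recomputed in 14 other settings (336 values), 259 kept their call. The other 77 lost it, most of them with an array left out, and 0 changed direction. These log2 changes cannot move with a mean-variance trend, dim genes removed, all probe sets, the mean of probe sets or a replicate block. The same holds for only the 2 groups compared and for an array of the third group left out. In those settings the direction was fixed in advance. Leaving out either array of the third group is also the same fit as comparing only the 2 groups, so the 336 values repeat some fits. The 10 higher members on day 4 became 4 to 11 with 1 array left out, and the 1 lower member 0 to 1, or 2 with median centring or with the dimmest 30% of genes removed. The 4 higher members on day 1 became 7 with cyclic loess or a replicate block, 6 with the dimmest 30% of genes removed and 3 with all probe sets. The 6 lower ones became 8 with median centring and 7 with the dimmest 30% removed. They became 5 with cyclic loess, a mean-variance trend, all probe sets or only the 2 groups compared. With 1 array left out the lower count always fell. The higher count fell or stayed, apart from a rise without day 1 wound replicate 1. The 3 members higher on day 4 than on day 1 became 1 with all probe sets, 0 with only the 2 groups compared and 0 to 1 with 1 array left out. In that comparison 9 probe sets were called higher and 11 lower among all 35556, and 8 and 9 genes with only the 2 groups, against 217 and 227 genes. Fewer samples or more features entered these fits; otherwise the cause was not tested. Col1a1 (adjusted p = 0.0227) and Col1a2 (0.0190) gained day 4 calls with only the 2 groups compared, and Col1a1 also with the block (0.0482). The labels tie the replicate numbers to no animal or batch, and the block was therefore kept out of the reported values. Replicate differences correlated at 0.685 between day 1 and day 4 wounds, 0.0139 between day 1 wounds and intact skin and 0.0227 between day 4 wounds and intact skin, over genes, so replicates 1 and 2 differed alike in the 2 wound groups. With the block, 235 of all genes were higher and 348 lower on day 4 than on day 1, against 217 and 227, and Col4a1 (adjusted p = 0.0119), Col4a2, Col15a1 and Col23a1 gained day 1 calls and Col9a2 lost its own. No detection call limits which dim chains were measured above background.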
